A study of Rattus norvegicus with 18 samples.

Results

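Small RNA from the somatosensory cortex of Sprague Dawley rats at postnatal day 7 (P7) was compared with that at postnatal day 14 (P14). Each stage was 1 tissue sample sequenced in 2 technical runs, so that 4 of the 18 libraries of the developmental series were used, chosen by their stage label alone. The labels name no transgene and no treatment, and how many animals made up a sample is not given in the sources used here. The dissected region was the dorsal lateral cortex, freed of meninges and subcortical tissue. With 1 tissue sample a stage no test between stages is possible, and every difference below is one between 2 tissue samples.

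MicroRNAs (miRNAs) are short RNAs that guide Argonaute proteins to messenger RNAs, mostly by pairing of their seed, bases 2 to 8, and lower the output of these messages. Between P7 and P14 the rodent cortex forms synapses rapidly, neuronal activity rises, eye opening approaches and oligodendrocytes begin to wrap axons with myelin. miR-132 and miR-212 are known as miRNAs whose shared transcript is induced by neuronal activity through CREB. miR-219 and miR-338 are known for their part in oligodendrocyte differentiation, and the miR-29 family for its rise during the maturation of neurons.

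A level was the read count of all tags of a miRNA divided by the total clean reads of the library and given per 1e6 clean reads (TPM). Tags had to be present in the 2 runs of a stage. Counted for a miRNA were the tags identical to it over the shared length, with the 5′ end within 3 nt of the mature end and the 3′ end at most 3 nt beyond. P14 was compared with P7 within run 1 and within run 2. A miRNA was called when it differed by at least 2-fold in the same direction in both runs. Of all names, 258 had a mean of at least 10 TPM over the 4 libraries and were compared.

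Of these 258 miRNAs, 9 were higher at P14 (3.49% of those compared) and 1 was lower (0.388%). The 9 were both arms of the miR-132 and miR-212 hairpins, miR-219a-2-3p, miR-7b, miR-582-3p, miR-92b-5p and miR-770-5p. The lower one was miR-219a-5p, from the opposite arm of the hairpin that gives miR-219a-2-3p. Their mature sequences, from RefSeq (GRCr8), are shown with the seed in capitals because the arms and families are compared in what follows.

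miR-132-3p: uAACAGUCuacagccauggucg
miR-212-3p: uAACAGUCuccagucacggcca
miR-132-5p: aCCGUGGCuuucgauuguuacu
miR-212-5p: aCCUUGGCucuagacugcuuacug
miR-219a-2-3p: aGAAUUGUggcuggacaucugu
miR-219a-5p: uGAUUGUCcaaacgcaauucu
miR-7b: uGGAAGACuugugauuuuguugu
miR-582-3p: aACCUGUUgaacaacugaaccc
miR-92b-5p: aGGGACGGgacgcggugcaguguu
miR-770-5p: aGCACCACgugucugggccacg

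miR-132-3p and miR-212-3p share the seed AACAGUC. The capitals mark the seed of the RefSeq 5′ end, and some counted reads began at another base. Such reads held 47.8% and 19.2% of miR-132-5p in P7 and 52.4% and 22.9% in P14. For miR-582-3p they held 51.7% and 43.6% in P7 and 38.3% and 43.1% in P14, and for miR-132-3p 18.3% to 21.1% in the 4 libraries. In GRCr8 the arms of both hairpins lay in 1 stretch of 342 bases on the plus strand, at chr10:60521771-60522112. The 2 arms of the miR-219a hairpin lay on the minus strand at chr3:33516517-33516581.

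**Figure D1:**
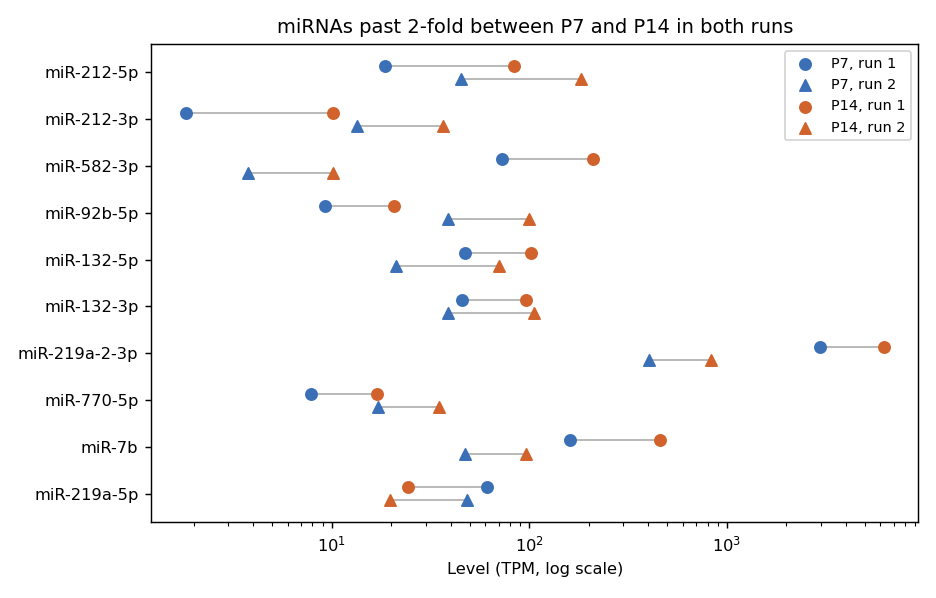
Levels in TPM (log axis) of the 10 miRNAs past 2-fold in both runs. Circles are run 1 and triangles run 2, blue is P7 and orange P14, and a grey line joins the stages of a run; the runs of a stage often lie further apart than the stages of a run, as for miR-582-3p at 73.3 and 3.77 TPM in P7.

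The cluster of miR-132 and miR-212 was higher at P14 in all 4 of its mature forms. miR-132-3p was at 45.5 TPM in run 1 and 38.6 TPM in run 2 of P7, and at 96.1 and 105 TPM in P14. Both P14 libraries lay above both P7 libraries, with a log2 ratio of 1.08 in run 1 and 1.45 in run 2. The counting intervals of these log2 ratios (95%, exact) were 0.87 to 1.29 and 1.31 to 1.59, and they hold the counting error alone, because PCR copies are not separate molecules. miR-132-5p was at 47.5 and 21.1 TPM in P7 and at 102 and 70.7 TPM in P14, again without overlap (log2 ratios 1.104 and 1.74). On tags with the exact mature 5′ end its log2 ratios were 0.97 and 1.68, which missed the limit in run 1. The ratio of the 3p to the 5p arm was 0.958 and 1.83 in P7 and 0.942 and 1.49 in P14, so that the arms were near each other in run 1 and the 3p arm was the higher one in run 2.

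miR-212-5p was the most abundant form of the miR-212 hairpin, at 18.7 and 45.0 TPM in P7 and 83.5 and 182 TPM in P14. It was 4.46-fold higher at P14 in run 1 and 4.05-fold in run 2, the largest difference of any compared miRNA when ranked by its smaller run. miR-212-3p was at 1.83 and 13.4 TPM in P7 and at 10.2 and 36.5 TPM in P14. Its run 1 value in P7 rested on 13 reads, and the P14 library of run 1 lay below the P7 library of run 2. Within a run it was 5.57-fold and 2.72-fold higher at P14. Summed over the shared seed AACAGUC, the 2 miRNAs went from 47.3 to 106.3 TPM in run 1 and from 52.0 to 142 TPM in run 2.

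In the tissue samples around these stages, miR-132-3p was at 28.6 and 27.6 TPM at P3 and at 874 and 716 TPM at P28 (runs 1 and 2). miR-212-5p was at 31.7 and 26.5 TPM at P3 and at 315 and 660 TPM at P28. P7 was thus above P3 in both runs for miR-132-3p and in run 2 only for miR-212-5p, and P28 was above P14 for both in both runs.

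**Figure D2:**
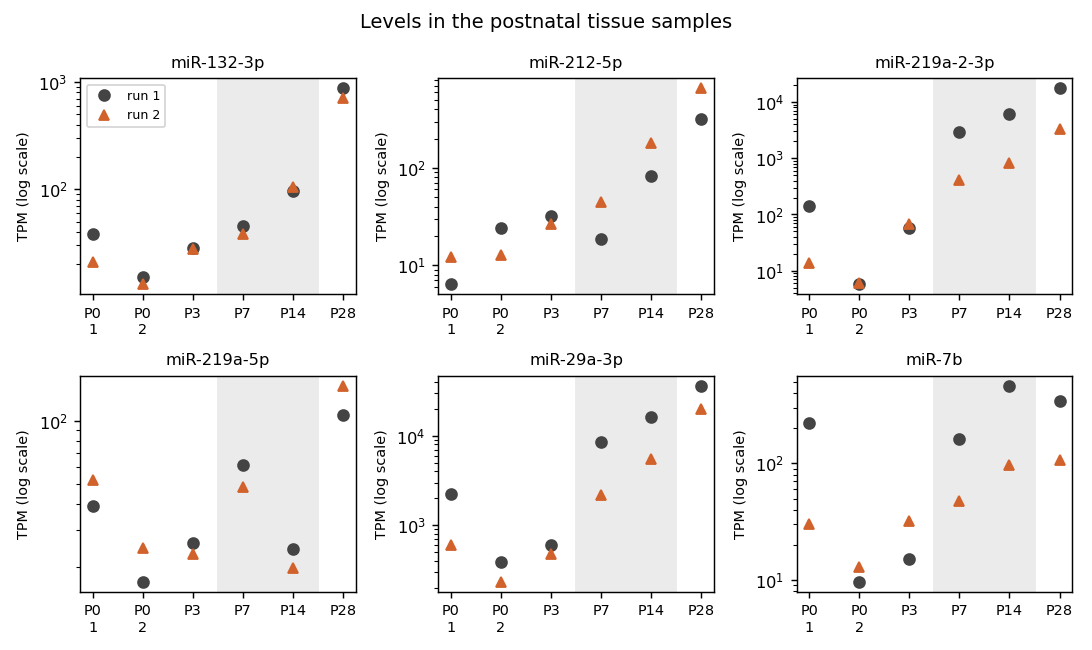
Levels in TPM (log axis) of 6 miRNAs in the postnatal tissue samples, with circles for run 1 and triangles for run 2; P0 has 2 tissue samples and the grey band marks P7 and P14. miR-132-3p reached 874 and 716 TPM at P28, while miR-219a-5p was lower at P14 (24.5 and 19.9 TPM) than at P7 or P28.

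The 2 arms of the oligodendrocyte miRNA miR-219a went in opposite directions. miR-219a-2-3p was at 2971 and 403 TPM in P7 and at 6221 and 835 TPM in P14. P14 was higher by a log2 ratio of 1.07 in run 1 and 1.05 in run 2, but the P7 library of run 1 lay above the P14 library of run 2. miR-219a-5p was at 61.1 and 48.2 TPM in P7 and at 24.5 and 19.9 TPM in P14, without overlap, and its log2 ratios were -1.32 and -1.28. The ratio of the 3p to the 5p arm was 48.6 and 8.35 in P7 and 254 and 42.0 in P14. miR-219a-5p is also made from another hairpin, miR-219a-1, and reads of the 5p arm from both were counted together.

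miR-338-3p, the third oligodendrocyte miRNA, was at 14.9 and 38.2 TPM in P7 and at 21.8 and 48.1 TPM in P14 (log2 ratios 0.55 and 0.33), which missed the 2-fold limit. In a tissue sample, more oligodendrocytes and more RNA per cell cannot be told apart. At P3 miR-219a-2-3p was at 58.3 and 66.4 TPM, far below both P7 libraries, and at P28 it was at 17547 and 3314 TPM. miR-219a-5p was at 26.3 and 23.2 TPM at P3 and at 106.3 and 146 TPM at P28, so that its order over these stages was P28, P7, then P3 and P14, whose values were close.

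The call of miR-219a-5p rested on tags with other 3′ ends than the RefSeq sequence. Tags that stop short of it held 77.0% and 52.6% of its reads in P7 and 77.5% and 47.5% in P14. Identical tags held at most 1.91% of its reads in a library, and on these alone, 1 to 6 reads a library, P14 was not lower in run 1 (log2 ratio 0.53) and was near P7 in run 2 (-0.11). The sequence of miR-219a-2-3p was shortened at its 3′ end in 93.02% to 98.6% of reads in all 4 libraries, and this share differed little between stages within a run. On identical tags alone, 104 to 211 reads a library, its log2 ratios were 1.03 and 0.44, and it was no longer called.

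Of the other 4 called miRNAs, miR-7b was the most abundant. miR-7b shares its seed GGAAGAC with miR-7a-5p, a miRNA enriched in neurons and neuroendocrine cells. miR-7b was at 161 and 47.6 TPM in P7 and at 461 and 96.0 TPM in P14, so P14 was higher within each run, by 2.86-fold and 2.02-fold, while the run 1 library of P7 lay above the run 2 library of P14. miR-7a-5p was at 1306 and 350 TPM in P7 and at 2664 and 595 TPM in P14, past 2-fold in run 1 (log2 ratio 1.03) and short of it in run 2 (0.76).

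miR-582-3p was at 73.3 and 3.77 TPM in P7 and at 211 and 10.1 TPM in P14 (log2 ratios 1.53 and 1.43). Its run 2 values rested on 55 and 160 reads, with a counting interval of the log2 ratio from 0.98 to 1.90. miR-92b-5p was at 9.30 and 38.7 TPM in P7 and at 20.6 and 99.7 TPM in P14 (log2 ratios 1.15 and 1.37). miR-770-5p, which lies in the imprinted Dlk1-Dio3 region, was at 7.89 and 17.3 TPM in P7 and at 16.9 and 35.1 TPM in P14 (log2 ratios 1.103 and 1.03). On tags with the exact mature 5′ end miR-770-5p was at 1.09 and 0.99, just short of the limit in run 2. The counting intervals of miR-92b-5p and miR-770-5p in run 1 reached down to 0.69 and 0.60, below the 2-fold limit. Of the 10 called, 6 had an interval that reached inside the limit in at least 1 run, the others being miR-132-3p, miR-132-5p, miR-582-3p and miR-7b.

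Just outside the limit, miR-378a-3p had log2 ratios of 1.16 and 0.97, miR-409a-5p of 1.09 and 0.94, miR-135a-3p of 0.94 and 0.98, and miR-29a-3p of 0.93 and 1.33. On the lower side, miR-33-5p had -1.20 and -0.87, miR-376a-3p -1.34 and -0.85, and miR-130b-3p -0.76 and -0.75. miR-33-5p, which lies in an intron of a sterol regulator gene and is known to act on cholesterol export, was at 248 and 109 TPM in P7 and at 108 and 59.98 TPM in P14. miR-376a-3p was at 1980 and 805 TPM in P7 and at 783 and 445 TPM in P14.

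**Figure D3:**
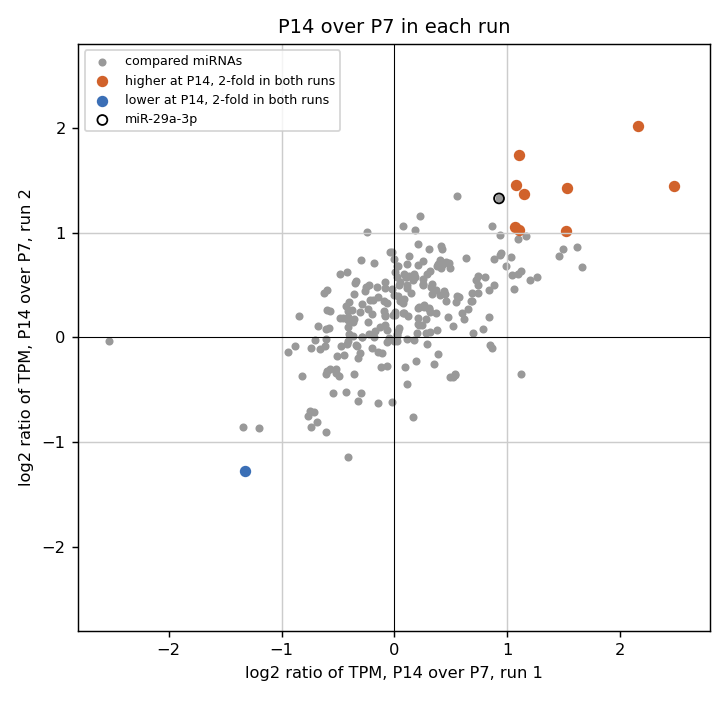
The log2 ratio of TPM, P14 over P7, of 258 miRNAs in run 1 (horizontal) against run 2 (vertical), with grey lines at 2-fold. Orange points are the 9 called higher, the blue point is miR-219a-5p, and the ringed point is miR-29a-3p (0.93 and 1.33); 1 point at the left, miR-9a-3p, lies at -2.53 in run 1 and -0.04 in run 2.

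The median log2 ratio over the 258 miRNAs was 0.08 in run 1 and 0.28 in run 2, so the values above are to be read against a shift of that size. With TMM scaling over the named miRNAs the medians were -0.11 and 0.05, and the split of calls moved from 9 higher and 1 lower to 4 higher and 3 lower. Of the 10 called miRNAs, miR-212-5p, miR-212-3p, miR-582-3p and miR-219a-5p were then still called, and miR-132-3p, miR-132-5p, miR-219a-2-3p, miR-7b, miR-92b-5p and miR-770-5p were not. The log2 ratios of miR-132-3p were 0.89 and 1.22, those of miR-132-5p 0.91 and 1.51, those of miR-219a-2-3p 0.87 and 0.82, and those of miR-212-5p 1.96 and 1.78. In both runs 130 miRNAs were higher at P14 and 50 were lower, and for 78 the direction differed between runs. Another 17 miRNAs passed 2-fold in run 1 only and 8 in run 2 only.

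The runs of a stage differed more than the stages. The median size of the log2 ratio between runs was 1.34 in P7 and 1.24 in P14, against 0.37 and 0.38 between the stages within run 1 and run 2. The largest gaps between runs were for miR-181b-5p, at 22.5 and 1460 TPM in P7, and for a sequence assembled from the study's primers for miR-99b, at 53589 and 1861 TPM. This sequence lies whole in the RefSeq hairpin of miR-99a (Mir99a) and in none of the other hairpins searched. It differs from the RefSeq miR-99b-5p, which was at 674 and 1668 TPM in P7 and at 727 and 2319 TPM in P14. miR-9a-3p, a miRNA of neural progenitors and neurons, was at 19131 TPM in run 1 of P7 and 3322 TPM in run 1 of P14, but at 1400 and 1366 TPM in run 2. Its difference between stages therefore appeared in run 1 only.

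Only P0 had 2 tissue samples, and these give the sole measure of the spread between tissue samples. Their run 1 libraries also differed in make-up, with let-7b at 10682 and 60306 TPM. In run 1 of P7 and P14 let-7b was at 9003 and 8306 TPM. Reads of 22 nt were 1451817 of 6916489 and 3380442 of 10258095 in run 1 of the P0 samples. A difference between tissue samples and one between libraries cannot be told apart in this pair. By the same rule 55 of 259 miRNAs (21.2%) passed 2-fold between the 2 P0 samples, 7 in one direction and 48 in the other, and the log2 ratio had a median size of 1.58 in run 1 and 0.72 in run 2. The 10 calls between P7 and P14 (3.88%) were thus fewer than those between samples of 1 stage. For 4 of the 10, the difference between P7 and P14 was larger than that between the P0 samples in both runs. These 4 were miR-212-5p, miR-212-3p, miR-92b-5p and miR-219a-5p. The 10 had been called for a large difference between P7 and P14 in the same values, which favours this outcome. The share among all compared miRNAs was not taken. Whether the 4 stand above the spread between tissue samples was therefore not tested. The P0 samples differed by log2 ratios of -1.33 and -0.69 for miR-132-3p and of -4.59 and -1.17 for miR-219a-2-3p (sample 2 over sample 1). P3 to P7 gave 54 of 259 (20.8%), 41 higher (15.8%) and 13 lower (5.02%), and P14 to P28 gave 35 of 267 (13.1%), 21 higher (7.87%) and 14 lower (5.24%). These steps share the P7 or the P14 sample with the comparison described here. In run 1 let-7b was at 51334 TPM at P3 and 17277 TPM at P28, so P3 to P7 also held a large gap of this kind.

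**Figure D4:**
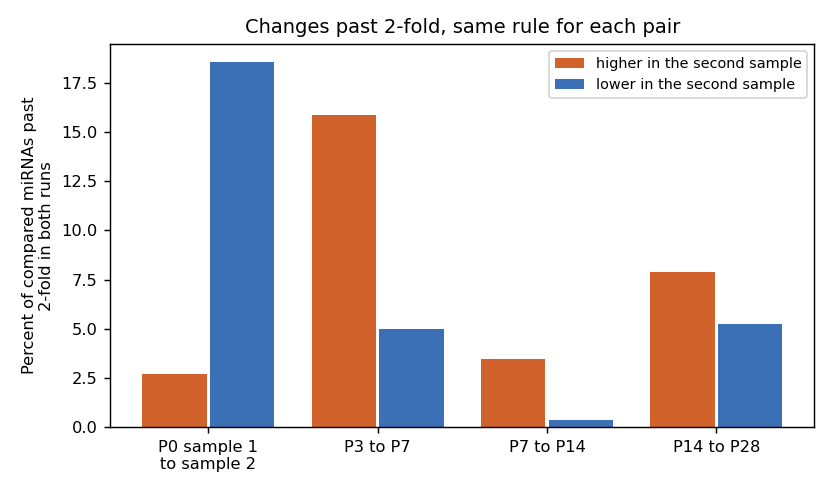
Percent of compared miRNAs past 2-fold in both runs for 4 pairs of tissue samples, with orange bars for higher and blue bars for lower in the second sample of the pair. P7 to P14 had 3.49% higher and 0.388% lower, and the 2 samples of P0 had 2.7% and 18.5%.

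The miR-29 family was higher at P14 in all 3 members and both runs, beside 50.4% of all compared miRNAs higher in both runs, and without a call by the 2-fold rule. These miRNAs, which are known to lower DNA methyltransferases, extracellular matrix proteins and pro-apoptotic BH3 proteins, share the seed AGCACCA and are shown to let their 3′ parts be compared.

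miR-29a-3p: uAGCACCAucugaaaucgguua
miR-29b-3p: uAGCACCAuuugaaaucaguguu
miR-29c-3p: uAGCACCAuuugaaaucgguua

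miR-29a-3p made up most of the family, at 8482 and 2166 TPM in P7 and 16127 and 5431 TPM in P14. The P7 library of run 1 lay above the P14 library of run 2. miR-29b-3p was at 189 and 28.96 TPM in P7 and 233 and 51.9 TPM in P14 (log2 ratios 0.30 and 0.84), and miR-29c-3p at 274 and 243 TPM and at 478 and 362 TPM (0.80 and 0.58). The family sum went from 8945 to 16839 TPM in run 1 and from 2438 to 5845 TPM in run 2. Its log2 ratios of 0.91 and 1.26 stood beside medians of 0.08 and 0.28 over all compared miRNAs. Between the 2 P0 tissue samples all 3 members also differed in both runs, by log2 ratios of -2.51 and -1.39 for miR-29a-3p (sample 2 over sample 1), larger in size than its 0.93 and 1.33 between P7 and P14.

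Neuronal miRNAs did not move together. Of 12 listed, 11 were compared, 2 were called higher (miR-132-3p and miR-212-3p), 3 more were higher in both runs and 4 were lower in both runs. Over all compared miRNAs 3.49% were called higher, 50.4% were higher in both runs and 19.4% were lower in both runs. The median log2 ratios of the list were -0.07 and 0.09. miR-124, a miRNA specific to neurons, was at 42077 and 31082 TPM in P7 and 33602 and 20473 TPM in P14 (log2 ratios -0.32 and -0.60). miR-128-3p was at 208852 and 98066 TPM in P7 and 221394 and 126087 TPM in P14 (0.08 and 0.36). miR-138-5p, which is enriched at dendrites, had log2 ratios of -0.42 and -0.07, miR-134-5p 0.37 and 0.07, and miR-218a-5p 0.23 and 1.16. miR-137-3p, miR-9a-5p, miR-153-3p and miR-9a-3p held values between -2.53 and 0.20. miR-129-5p, at 0.704 and 13.2 TPM in P7 and 1.43 and 22.1 TPM in P14, was below the minimum.

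The 12 miRNAs of the miR-17-92 cluster, its paralogs and miR-130, which are known in dividing progenitors, gave 10 that were compared and 0 calls, beside 3.88% called over all miRNAs. Of the 10, 6 were lower and 2 were higher in both runs, beside 19.4% and 50.4% over all, and the medians were -0.48 and -0.06, below those of all miRNAs. miR-130b-3p was at 58.2 and 12.8 TPM in P7 and 34.3 and 7.59 TPM in P14, and miR-20a-5p at 19.6 and 11.8 TPM and at 13.5 and 8.22 TPM (log2 ratios -0.54 and -0.53). miR-92b-3p went the other way, from 196 and 176 TPM to 257 and 287 TPM (0.39 and 0.70). miR-221-3p had log2 ratios of 0.08 and 0.61 and miR-222-3p of 0.28 and 0.04.

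The 10 most abundant names were let-7c, miR-128-3p, let-7f, let-7a, let-7b, let-7d, miR-124, the miR-99a sequence given by the miR-99b primers, miR-103-3p and miR-107-3p. Their largest difference in size was the log2 ratio of -0.60 of miR-124 in run 2. In the 2 runs 3 were higher, 3 lower and 4 of opposite direction, beside 130, 50 and 78 of the 258 compared miRNAs. Tags that also fitted another name held 85.4% and 51.6% of the reads of miR-103-3p in P7 and 86.8% and 55.8% in P14, and 89.9% and 79.4% of those of miR-107-3p in P7 and 88.6% and 79.96% in P14, so that their levels are not independent. The let-7 list of 8 held 0 calls, beside 3.88% called in either direction over all compared miRNAs. In both runs 1 member was higher (let-7e, 0.69 and 0.35) and 3 were lower, beside 50.4% and 19.4% over all. let-7i was the largest of the lower ones, at -0.51 and -0.30.

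Of the Dlk1-Dio3 miRNAs, an imprinted cluster expressed from the maternal chromosome and abundant in brain, 49 of 74 were compared. miR-770-5p was called, 27 with it included were higher in both runs and 3 were lower in both runs. Of all compared miRNAs 3.88% were called, 50.4% were higher in both runs and 19.4% were lower in both runs. The median log2 ratios were 0.21 and 0.36, beside 0.08 and 0.28 over all miRNAs. miR-379-5p was at 1537 and 397 TPM in P7 and 4230 and 680 TPM in P14 (1.46 and 0.78), and miR-376a-3p, described above, was on the opposite side. The cluster summed to 46084 and 32255 TPM in P7 and 51277 and 44084 TPM in P14.

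**Figure D5:**
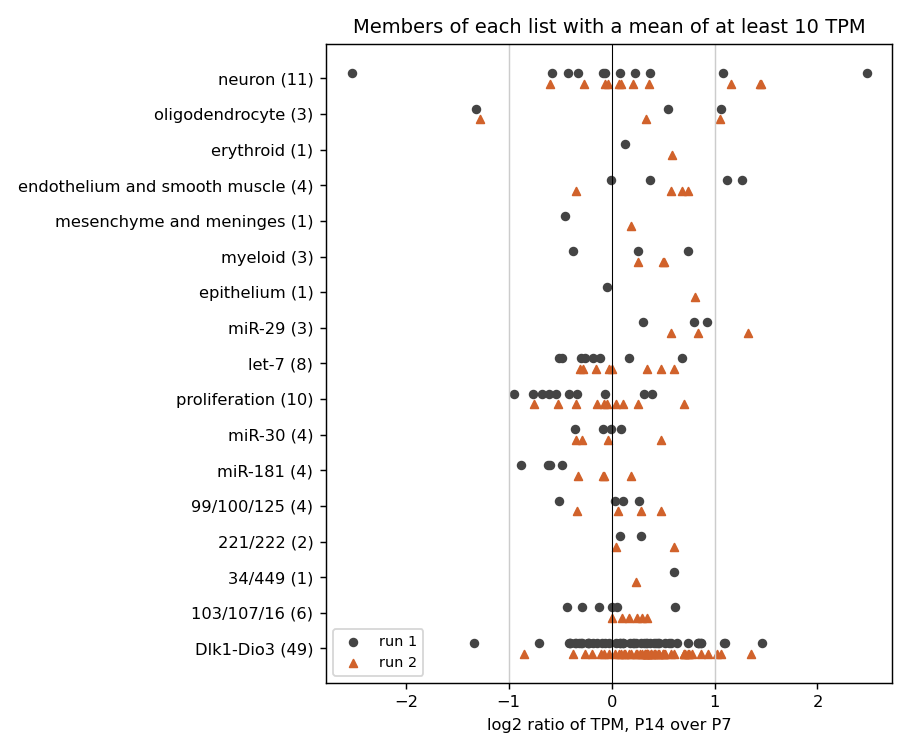
The log2 ratio of TPM, P14 over P7, of each compared member of each list (number of members in brackets), with circles for run 1 and triangles for run 2 and grey lines at 2-fold. All 3 miR-29 members lie right of 0 in both runs, and the neuron list spreads from -2.53 to 2.48.

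Markers of other cell types were summed by list. The erythroid miRNAs miR-451 and miR-144 (2 of 3 listed had a sequence) summed to 36.8 and 24.2 TPM in P7 and 39.0 and 35.5 TPM in P14. The endothelial and smooth muscle list (4 of 4) summed to 1867 and 627 TPM in P7 and 4202 and 927 TPM in P14, mostly miR-143-3p at 1627 and 528 TPM and at 3912 and 788 TPM. Of its 4 members, 2 were higher in both runs, beside 50.4% of all compared miRNAs. miR-126a-3p was at 76.1 and 38.3 TPM and at 75.7 and 64.1 TPM, and miR-145-5p at 2.54 and 26.6 TPM and at 5.51 and 20.9 TPM. Of the mesenchyme and meninges list 3 of 3 had a sequence, and the sum was 2635 and 1428 TPM in P7 and 1925 and 1620 TPM in P14. This sum was nearly all miR-199a-3p, at 2628 and 1420 TPM in P7 and 1922 and 1614 TPM in P14. miR-199a-5p was at 6.78 TPM or less and miR-214-3p at 1.69 TPM or less in every library. The myeloid list (5 of 6) summed to 2224 and 569 TPM in P7 and 1831 and 691 TPM in P14, mostly miR-21-5p. miR-142-3p and miR-223-3p were at 1.43 TPM or less, while miR-142-5p was at 21.7 and 17.1 TPM in P7 and 25.9 and 24.4 TPM in P14, and miR-146a-5p at 117 and 27.0 TPM and at 195.3 and 38.02 TPM. The epithelial list (4 of 7) summed to 14.5 and 7.60 TPM in P7 and 14.1 and 13.3 TPM in P14, nearly all miR-203a-3p at 14.1 and 7.46 TPM and at 13.7 and 13.1 TPM. Its members miR-141-3p and miR-205 had 0 reads in all 4 libraries, which allows up to 3 reads in each. The part of these cells in the differences above was not tested.

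Single tags gave a finer view. Of 2709 unique tags seen in both runs of both stages with a mean of at least 10 TPM, 64 were at least 2-fold higher at P14 in both runs (2.36%) and 78 were lower (2.88%). Of these, 15 and 16 had at most 3 reads in at least 1 of the 4 libraries, and at a mean of at least 50 TPM the balance was 14 higher and 8 lower. Among the 64 higher, 36 belonged to named miRNAs and 19 differed from one by 1 base. Among the 78 lower, only 5 had a name, 40 differed from a named miRNA by 1 base (30 of them from a let-7), and 33 had neither. Of all 2709 tags, 44.9% had a name, 36.9% differed from a named miRNA by 1 base (20.2% from a let-7) and 18.2% had neither. The 5 most raised and the 5 most lowered tags at a mean of at least 50 TPM are shown, with the seed in capitals for tags of a miRNA and the changed base in capitals for tags that differ by 1 base.

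miR-128-3p with 1 change, higher: ucacaCugaaccggucucuuu
miR-212-5p, higher: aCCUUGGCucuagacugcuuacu
miR-379-5p, 19 nt, higher: uGGUAGACuauggaacgua
miR-379-5p, 20 nt, higher: uGGUAGACuauggaacguag
miR-219a-2-3p with 1 change, higher: agaauuguggcuggaAaucu
let-7c with 1 change, lower: Agagguaguagguuguaug
no name, 20 nt, lower: cgcgaccucagaucagacgu
no name, 21 nt, lower: cgcgaccucagaucagacgug
no name, 19 nt, lower: cgccugucugagcgucgcu
no name, 18 nt, lower: ccugcggaaggaucauua

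The changed miR-128-3p tag carried G6C, with positions counted from the 5′ end of the mature sequence, and lay in the seed. It was at 43.4 and 11.8 TPM in P7 and at 204 and 63.0 TPM in P14, 4.70-fold and 5.35-fold higher. It amounted to 0.0208% and 0.0120% of the level of miR-128-3p in P7 and to 0.0921% and 0.0499% in P14. Over all miRNAs with a mean of at least 50 TPM, reads with 1 changed base were 4.58% and 2.96% in P7. In P14 they were 7.05% and 2.11%. G-to-C changes made up 4.03% and 3.97% of changed reads in P7 and 8.36% and 4.64% in P14. Their part in the rise of this tag was not tested. The changed miR-219a-2-3p tag carried C16A and was at 85.8 and 219.02 TPM in run 1, but at only 0.0685 and 0.949 TPM in run 2, from 1 and 15 reads. The changed let-7c tag carried T1A and was at 62.4 and 102 TPM in P7 and 27.6 and 10.4 TPM in P14.

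The 2 shortened forms of miR-379-5p were at 85.9 and 4.997 TPM (19 nt) and at 359 and 33.0 TPM (20 nt) in P7. In P14 the shorter was at 320 and 15.0 TPM and the longer at 1144 and 84.8 TPM. Reads of miR-379-5p with a shortened 3′ end made up 31.8% and 10.1% in P7 and 37.8% and 15.6% in P14.

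The largest falls were tags that matched no miRNA used here. The 18 nt tag was at 5.78 and 223 TPM in P7 and at 0.612 and 16.2 TPM in P14, 9.43-fold and 13.8-fold lower, with 3 reads in run 1 of P14. The 19 nt tag was at 8.31 and 179 TPM in P7 and at 1.63 and 15.2 TPM in P14. The related tags of 20 and 21 nt were at 259 and 113 TPM and at 201 and 125.1 TPM in P7, and at 94.3 and 42.4 TPM and at 65.9 and 45.6 TPM in P14. The lower tags with neither a name nor a near miRNA summed to 1199 and 1972 TPM in P7 and to 381.3 and 459 TPM in P14. Sequences of other RNA classes were not used here, so these tags stay without a name.

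miR-376b-3p of the Dlk1-Dio3 cluster is known to be edited from A to I in its seed, which sequencing reads as an A-to-G change. The RefSeq sequence is shown with its seed in capitals, since the change falls within it.

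miR-376b-3p: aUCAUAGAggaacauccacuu

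The share of tags with A6G among tags with the mature 5′ end was 70.6% (95% Wilson interval 69.4 to 71.7) and 71.6% (69.5 to 73.6) in P7. In P14 it was 75.6% (74.2 to 76.9) and 76.3% (74.8 to 77.7). The 2 runs of a stage lay within counting error of each other, and P14 was higher by 5.04 and 4.66 percentage points, outside the counting intervals. These intervals hold no spread between tissue samples, and the share was not taken in the 2 P0 samples. Of miR-411-5p, A5G was at 4.27% and 3.33% in P7 and at 6.21% and 4.95% in P14, with intervals apart between stages in both runs. Here the runs of a stage were apart as well. The intervals were 4.12 to 4.42 and 2.92 to 3.81 in P7, and 5.97 to 6.46 and 4.52 to 5.42 in P14. Counting error thus understated the spread between runs.

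Another 3 A-to-G changes were above 1% in all 4 libraries and fitted 1 name only. A6G of miR-376c-3p was at 24.4% and 33.2% in P7 and 27.1% and 32.1% in P14, in opposite directions in the 2 runs. A16G of miR-378a-3p was at 3.78% and 3.94% in P7 and 4.17% and 4.72% in P14, and A16G of miR-137-3p at 1.74% and 1.51% and at 1.96% and 2.30%. The intervals of these 3 overlapped between stages in at least 1 run. Changes of other types passed the same limits. Among them, G18A of miR-30a-3p was at 35.0% and 33.8% in P7 and 51.3% and 37.2% in P14. T12C of miR-30a-5p was at 2.28% and 2.48% in P7 and 1.80% and 2.42% in P14.

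Read lengths differed between runs more than between stages. Reads of 22 nt were the most frequent in all 4 libraries, at 25.5% and 36.8% in P7 and 27.7% and 35.0% in P14. Over the 10 most abundant miRNAs with known ends, the median share of reads with a shortened 3′ end was 61.3% and 32.2% in P7 and 60.6% and 35.7% in P14. These shares were taken over tags that fit 1 name only, which leaves out most reads of miR-103-3p and miR-107-3p, and the tags left out were mostly shortened. With the shared tags counted for each name, the share of miR-107-3p in run 1 of P7 was 94.8% in place of 54.4%, and the medians were 72.7% and 42.8% in P7 and 68.3% and 47.7% in P14. The share was higher in run 1 than in run 2 at both stages for 9 of the 10 in either way of counting. It was higher at P14 in both runs for 3, or for 2 with the shared tags. The largest difference between stages was 7.63 percentage points, or 7.62 with the shared tags.

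The libraries held 7097469 and 14607976 clean reads in P7 and 4899010 and 15806174 in P14. Tags seen in both runs of a stage held between 95.6% and 97.0% of these reads, and named tags held between 84.3% and 89.9%. Of the 258 compared miRNAs, 101 are in the primer or change lists of the study, of which miR-132-3p and miR-219a-2-3p were called, beside 7 higher and 1 lower among the 155 other RefSeq names and 3.88% called over all, and 2 were candidates of the study, without a call.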

How the data were processed

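Total RNA was size selected on a gel, ligated to adapters, amplified and sequenced on an Illumina instrument. The authors removed low quality reads, adapters and ligation contaminants and deposited, for each library, unique tags with their length and the count of reads, without normalization, mapping or annotation; the trimming tool is not given in the sources used here. Run 1 of P7 and P14 held tags of 18 to 30 nt and run 2 of 18 to 39 nt.

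The 791 names were 691 mature miRNAs of RefSeq (GRCr8), 2 from the study's primers, 3 found from its list of nucleotide changes and 95 of its candidates. The members and lists were chosen with earlier results of these data known. A tag that fitted several names was counted for each in the levels and left out of the shares of shortened ends and of changed bases. TPM used all clean reads. Where a stage had 0 reads, 3 reads a library were used as the limit. By the naming rule, singly named miRNAs were those called at a mean of at least 50 TPM, the 10 most abundant, the members of the miR-29, oligodendrocyte, 221/222, neuron, proliferation and other cell type lists and, for tags, the 5 largest rises and falls at a mean of at least 50 TPM; the others that are named, among them miR-92b-5p, miR-770-5p and those just outside the limit, were chosen after their values were seen. Changed tags had the mature 5′ end and 1 mismatch. TMM factors came from edgeR 4.0.16 (limma 3.58.1, R 4.3.3); the rest ran in Python 3.11.15 (matplotlib 3.10.9, scipy 1.17.1, pandas 2.3.3, numpy 2.4.6). Over 5 rounds of counts simulated from the 258 miRNAs of P7 with counting error only, the rule called 250 of 250 cases raised by a log2 of 2, 245 of 250 raised by 1.3, 225 of 225 lowered by 2, 218 of 226 lowered by 1.3 and 0 of 286 unchanged cases. Simulated tags were found under their name in 4237 of 4237 cases.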

Additional observations from a re-analysis of the deposited data

How the results depend on the processing

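No paired analysis was possible because each stage was 1 tissue sample and no test was made. Against 9 miRNAs higher and 1 lower, TMM factors gave 4 and 3, median-of-ratios factors 4 and 3, no minimum level 31 and 14, a 1.5-fold limit 28 and 9, run 1 alone 23 and 4, run 2 alone 16 and 2, the mean of both runs 16 and 5, and the names of the study's lists 2 and 0. The lower count was 2 with the reads of named miRNAs as the total, 0 with identical tags and 0 at a mean of at least 50 TPM. Of the 10 called, 4 were also called with TMM factors, 5 with median-of-ratios factors, 5 with identical tags, 8 with the mature 5′ end, 9 with tags of either run and 10 with tags that fit 1 name, the last chosen after seeing the data. The mean log2 ratio of miR-219a-5p turned from -1.299 to 0.21 with identical tags, of which each library held 1 to 6. That of miR-219a-2-3p moved from 1.06 to 0.74 and that of miR-770-5p from 1.06 to 2.49, the latter on 2 to 66 identical reads a library. The 64 higher and 78 lower unique tags became 810 and 1024 with no minimum and 14 and 8 at a mean of at least 50 TPM. The share of 22 nt reads in run 2, over reads of 18 to 30 nt only, was 36.8% in P7 and 35.1% in P14, and with the exact 5′ end the median share of shortened reads over 10 miRNAs moved by less than 1 percentage point, while single shares moved by up to 4.98. With tags of several names counted for each, chosen after seeing the data, this median moved from 61.3% and 32.2% to 72.7% and 42.8% in P7 and from 60.6% and 35.7% to 68.3% and 47.7% in P14. Depth limits miR-212-3p, miR-92b-5p and miR-770-5p, which had 13, 66 and 56 reads in run 1 of P7.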
